A study of Mus musculus with 9 samples.

Results

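The insulin-like growth factor (IGF) axis was followed in EYFP+ mammary cells through 10 genes of the 55450 in the count table: the ligands Igf1 and Igf2, the receptors Igf1r and Igf2r, and the binding protein genes Igfbp2, Igfbp3, Igfbp4, Igfbp5, Igfbp6 and Igfbp7. The genes were selected on their counts over the 3 genotypes of these same libraries, so their differences between genotypes are described without a p-value. All cells came from adult nulliparous female mice carrying the lsl-EYFP reporter and K8CreERT2, a tamoxifen-inducible Cre under the Krt8 promoter, so that EYFP marks luminal cells that recombined and their progeny. Control mice carried these alleles only, LATS1/2-KO mice also carried floxed Lats1 and Lats2 (LATS1/2f/f), and LATS1/2-Sox9-KO mice carried LATS1/2f/f and Sox9f/f. Every group, control included, received 5 injections of 2 mg tamoxifen, and live EYFP+ cells were sorted 7 days after the last dose, according to the labels, without a gate that removes other cell lineages. Each group gave 3 libraries, with total counts of 44167762 to 47003587 in control, 50508666 to 61745346 in LATS1/2-KO and 55503365 to 61967651 in LATS1/2-Sox9-KO. Nothing states that the libraries of a group came from separate mice, so the p-values below measure the spread between these libraries, which may be technical.

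IGF1 and IGF2 are secreted growth factors that activate IGF1R, a receptor tyrosine kinase that signals through IRS adaptors to PI3K, AKT and mTOR. IGF2R, the cation-independent mannose 6-phosphate receptor, takes up IGF2 for degradation and sorts lysosomal enzymes. The IGF-binding proteins hold the ligands in the extracellular space with high affinity and can keep them from the receptor or carry them to it, whereas IGFBP7 binds IGFs only weakly. In the mammary gland, growth hormone acts on the stroma to induce Igf1 during ductal growth, and Igfbp5 is known from the involuting gland.

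The targeted genes were examined first. Lats1 was lower in both deletion groups, with normalized counts of 5672, 5929 and 5940.4 in control, 2090.1, 1923 and 2336 in LATS1/2-KO and 2058, 1844 and 1709 in LATS1/2-Sox9-KO. Lats2 did not fall, at 1041 ± 177 (SD, n = 3) in control, 1471 ± 236 in LATS1/2-KO and 1592 ± 359 in LATS1/2-Sox9-KO. Sox9 was at 21598 ± 1683, 9715 ± 2620.1 and 7343 ± 1281 in the same order, and the difference between the libraries labelled LATS1/2-KO and those labelled LATS1/2-Sox9-KO did not pass the test (log2 fold change -0.40 ± 0.19 SE, edgeR quasi-likelihood test, Benjamini-Hochberg adjusted p = 0.25). Gene-level counts sum over all exons and do not read the deleted exons, so the deletions are taken from the labels. Normalized counts here are the raw counts of a library brought to the average TMM-corrected depth of all 9.

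Marker genes of the labelled cells and of other mammary cell types were read in the same libraries in TPM, a level per length (counts divided by exon length, scaled to a fixed total per library). All 10 luminal markers were detected, led by Krt18 at 10419 to 11188 TPM in control and 16616 to 29191 TPM in the deletion groups. Against control, none of the 10 was called higher and 4 lower in LATS1/2-KO, beside 17.1% and 17.5% of all genes fitted, and 2 (Krt8 and Krt18) higher and 6 lower in LATS1/2-Sox9-KO, beside 17.8% and 19.6%. The 4 were Krt19 (log2 fold change -1.03), Esr1 (-3.50), Pgr (-5.91) and Foxa1 (-3.56), and the other 6 lay between -0.74 and 0.71. In LATS1/2-Sox9-KO the 6 were Epcam (-1.30), Esr1 (-3.67), Pgr (-9.34), Foxa1 (-3.78), Kit (-1.66) and Elf5 (-1.45). Between the deletion groups 1 was called, Pgr, which was lower in LATS1/2-Sox9-KO. The 8 basal markers, led by Krt14, summed to 79.3 to 95.8 TPM in control, 5098 to 9210.0 TPM in LATS1/2-KO and 3649 to 11282 TPM in LATS1/2-Sox9-KO. Nearly all of the sum in the deletion groups was Krt14, at 4715 to 8939 TPM and 3539 to 11123 TPM. Against control, 3 were called higher and 3 lower in LATS1/2-KO and 3 higher and 4 lower in LATS1/2-Sox9-KO. In LATS1/2-KO, Krt14 (log2 fold change 8.04), Acta2 (3.72) and Cnn1 (1.39) were called higher. Trp63 (-4.82), Myh11 (-2.2) and Mylk (-1.95) were called lower there, and Krt5 (0.06) and Oxtr (0.64) were not called. Against LATS1/2-KO, 3 of the 8 were called lower in LATS1/2-Sox9-KO, beside 2.16% of all genes, namely Acta2 (-1.34), Cnn1 (-2.09) and Oxtr (-2.55). The other 5 were not called, at 1.53 for Krt5, 0.99 for Myh11, 0.64 for Trp63, 0.41 for Krt14 and -0.05 for Mylk. The part of the basal markers in the differences of Igf1 and Igfbp5 in that comparison was not tested. The summed level of 7 adipocyte markers was 4.16, 2.73 and 4.47 TPM in control, 7.03, 268 and 151 TPM in LATS1/2-KO and 1.23, 71.8 and 38.8 TPM in LATS1/2-Sox9-KO. Their most abundant gene, Cfd, was at 0 in the control libraries and in LATS1/2-KO replicate 1 and at 198 TPM in LATS1/2-KO replicate 2, so replicates 2 and 3 of both deletion groups stood apart from replicate 1. Summed levels of 8 macrophage markers were 24.5, 24.3 and 23.9 TPM in control, 92.8, 60.7 and 37.7 TPM in LATS1/2-KO and 58.9, 54.7 and 84 TPM in LATS1/2-Sox9-KO, and Csf1r was their most abundant gene over the 9 libraries, at 1.42 to 2.25 TPM in control and 18.2 to 37.5 TPM in the deletion groups. Not all of the 8 followed Csf1r. In LATS1/2-KO replicate 3, Csf1r was at 1753 normalized counts, while Ptprc (10.9) and Adgre1 (6.38) were not above their highest control library. Cd68 had mean normalized counts of 403 in control, 312 in LATS1/2-KO and 310 in LATS1/2-Sox9-KO. C1qa, C1qb and C1qc were above control in every deletion library. Of the 7 adipocyte and 8 macrophage markers, 6 and 5 were called higher in LATS1/2-KO against control and 4 and 6 in LATS1/2-Sox9-KO against control, and none lower. Fibroblast markers (10 genes) summed to 23.8, 44.4 and 98 TPM in control, 84.7, 24.6 and 30.8 TPM in LATS1/2-KO and 21.1, 29.5 and 55.2 TPM in LATS1/2-Sox9-KO. Dcn, most abundant over the 9 libraries, made up 17.4 to 87.1 TPM of the sum in control, 2.93 to 14 TPM in LATS1/2-KO and 0.253 to 3.11 TPM in LATS1/2-Sox9-KO, and was called lower in both deletion groups. The collagen genes Col1a1, Col1a2 and Col3a1, in the same sum, were called higher in LATS1/2-KO with log2 fold changes of 1.90, 2.31 and 3.14. Of the 10 markers, 6 were called higher and 1 lower in LATS1/2-KO, and 5 higher and 2 lower in LATS1/2-Sox9-KO. Pericyte markers (6 genes, led by Notch3) summed to 131 to 170 TPM in control and 12.7 to 33.4 TPM in the deletion groups, nearly all of it Notch3, at 128 to 167 TPM in control. Of the 5 fitted, Notch3 and Rgs5 were called lower and Cspg4 higher in LATS1/2-KO. Endothelial markers (8 genes, with Pecam1 the most abundant) summed to 3.58 to 11.5 TPM over the 9 libraries, with Kdr called higher and Egfl7 lower in LATS1/2-KO. Lymphocyte markers (8 genes) summed to 0.413 to 2.99 TPM, most of it Cd79a at 0.413 to 2.79 TPM, and the T and B cell genes Cd3e and Ms4a1 were at 0 in every library. Markers with few counts in control, such as Cfd, could pass the filter on low counts only through the deletion groups, so these counts are not read against the shares of all genes. In bulk libraries, fewer cells of a type and less RNA per cell cannot be told apart.

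Among the binding protein genes, the dominant transcript was Igfbp5 in control and Igfbp2 or Igfbp7 in both deletion groups. Igfbp5 carried 97.9% ± 0.308 (SD, n = 3) of the summed TPM of the 6 binding protein genes in control, 1.4% ± 1.06 in LATS1/2-KO and 0.292% ± 0.18 in LATS1/2-Sox9-KO. Igfbp2 carried 0.0119% ± 0.00897, 59.1% ± 8.37 and 42.3% ± 8.12, and Igfbp7 carried 1.9% ± 0.306, 39.3% ± 7.88 and 57.2% ± 8.21. The sum itself was 1673 ± 509 TPM in control, 8098 ± 1009 TPM in LATS1/2-KO and 6141 ± 1092 TPM in LATS1/2-Sox9-KO, and the deletion libraries did not overlap the control libraries. With the longest transcript in place of the union of exons as the length, the shares of Igfbp2 and Igfbp7 in LATS1/2-Sox9-KO became 50.5% and 49%, so which of them led there depends on the length used.

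**Figure D1:**
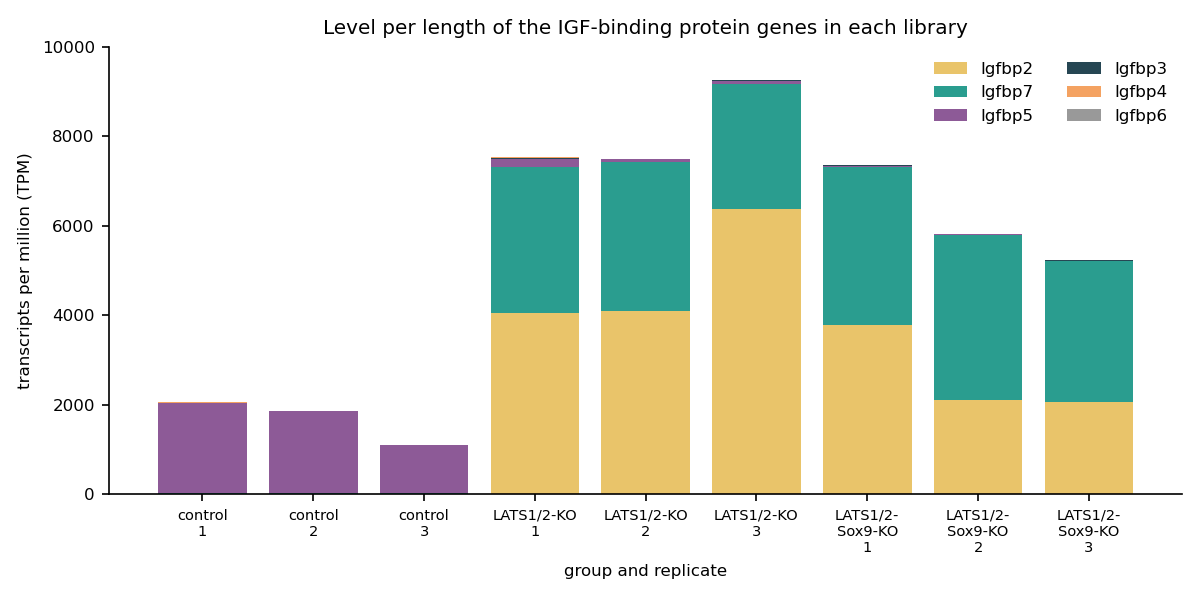
Stacked bars of the level of each of the 6 IGF-binding protein genes in TPM (vertical axis) in each of the 9 libraries (horizontal axis, group and replicate number). The control bars, 1094 to 2053 TPM high, are almost entirely Igfbp5, and the deletion bars, 5239 to 9263 TPM high, are almost entirely Igfbp2 and Igfbp7.

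The sequences upstream of Igfbp2, Igfbp5 and Igfbp7 are shown because these genes account for nearly all binding protein transcripts in one group or another. They are stretches of RefSeq promoter windows on GRCm38.p6, written in the direction of transcription and ending before the annotated gene: chr1:72824230-72824479 (+ strand) for Igfbp2, chr1:72874885-72875115 (- strand) for Igfbp5 and chr5:77408046-77408295 (- strand) for Igfbp7. Capitals mark CATTCC, the reverse complement of GGAATG, the core of the motif of TEAD factors, which act with YAP and TAZ downstream of LATS1/2.
Igfbp2: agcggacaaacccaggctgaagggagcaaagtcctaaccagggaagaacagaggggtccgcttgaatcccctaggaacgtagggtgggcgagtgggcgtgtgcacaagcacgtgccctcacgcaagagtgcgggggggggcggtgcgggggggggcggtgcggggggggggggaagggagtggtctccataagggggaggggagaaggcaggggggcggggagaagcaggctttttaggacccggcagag
Igfbp5: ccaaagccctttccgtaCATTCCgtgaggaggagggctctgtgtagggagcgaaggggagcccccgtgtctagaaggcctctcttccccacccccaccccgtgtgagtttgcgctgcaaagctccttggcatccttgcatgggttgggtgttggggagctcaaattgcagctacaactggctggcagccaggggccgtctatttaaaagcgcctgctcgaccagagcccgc
Igfbp7: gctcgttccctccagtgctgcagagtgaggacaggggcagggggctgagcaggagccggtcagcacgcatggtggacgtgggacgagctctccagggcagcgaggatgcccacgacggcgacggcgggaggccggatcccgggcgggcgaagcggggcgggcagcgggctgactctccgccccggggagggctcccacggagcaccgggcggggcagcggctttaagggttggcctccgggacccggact

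The windows of 250 bases before the RefSeq start were searched on both strands for GGAATG and for ACAATG, the core letters of SOX factor motifs, which ends in the same AATG, so that both cannot match at one place. All 10 genes had a window, 14 in total. GGAATG or its reverse complement was present once in the Igfbp5 window, 233 bases before the start, and in 3 of the 4 windows of Igf2, compared with 12.6% of all 32851 windows. ACAATG or its reverse complement was present in 1 window of Igf2 and in none of the other genes, compared with 10.7% of all windows. Neither word occurs in the windows of Igfbp2, Igfbp7, Igf1, Igf1r, Igf2r, Igfbp3, Igfbp4 or Igfbp6. A match is a stretch of letters in this window and not a measured binding site.

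Igfbp2 encodes a secreted binding protein with a preference for IGF2 and an integrin-binding sequence. In control, its normalized counts were 1.16, 7.94 and 6.22. The LATS1/2-KO libraries had 120448, 128314 and 195990.0, and the LATS1/2-Sox9-KO libraries 131721, 71086 and 68073. The control libraries were thus near the detection limit, with raw counts of 1, 7 and 5, and every deletion library was far above them, whereas the deletion groups overlapped. On the log2 scale of the fit, Igfbp2 was higher than in control by 14.79 ± 0.56 (SE) in LATS1/2-KO and by 14.08 ± 0.55 in LATS1/2-Sox9-KO. Per length, Igfbp2 ranked 7 among all genes of the table in LATS1/2-KO by its mean of 4842 TPM, against rank 21128 in control. Between the deletion groups the log2 difference was -0.72 ± 0.30 and changed to 0.17 when only replicate 1 of each deletion group was used, a setting chosen after the adipocyte transcripts were seen.

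Igfbp7 (chr5:77349240-77408041, - strand) encodes a secreted protein of vessel walls and matrix with weak IGF binding. Its normalized counts were 705, 594 and 478 in control, 63379, 68063 and 56354 in LATS1/2-KO and 80152, 81778 and 68145 in LATS1/2-Sox9-KO. In normalized counts the groups did not overlap in any pair, and the spread within each group was small beside the difference from control. In TPM the deletion groups did overlap, at 2797 to 3327 in LATS1/2-KO and 3152 to 3699 in LATS1/2-Sox9-KO. The log2 difference from control was 6.72 ± 0.19 in LATS1/2-KO and 7.02 ± 0.19 in LATS1/2-Sox9-KO. The LATS1/2-Sox9-KO libraries were higher than LATS1/2-KO by only 0.29 ± 0.15. Igfbp7 shares 85 exonic bases with Polr2b on the opposite strand, whose mean normalized counts were 3711, 6818 and 6061 in the 3 groups, and reads in those bases cannot be assigned by strand here. Endothelial cells also express Igfbp7, and the summed level of their markers was 9.56 to 11 TPM in control, 9.7 to 11.5 TPM in LATS1/2-KO and 3.58 to 9.29 TPM in LATS1/2-Sox9-KO. Among these markers, Kdr was called higher in both deletion groups (log2 fold changes of 2.43 and 3.37) and Egfl7 lower (-1.47 and -1.60). Tek was called lower in LATS1/2-Sox9-KO, both against control (-1.48) and against LATS1/2-KO (-2.27). The part of endothelial transcripts in the Igfbp7 counts was not tested.

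Igfbp5 encodes a binding protein that also attaches to extracellular matrix. Its normalized counts were 193595, 172227 and 102835 in control, where it ranked 57 of all genes by mean TPM. They were 19119, 5614 and 7749.5 in LATS1/2-KO and 4118, 985 and 1268 in LATS1/2-Sox9-KO. None of the 3 groups overlapped, with the lowest LATS1/2-KO library at 5614 and the highest LATS1/2-Sox9-KO library at 4118. Relative to control, Igfbp5 was lower, with log2 differences of -3.85 ± 0.64 in LATS1/2-KO and -6.20 ± 0.72 in LATS1/2-Sox9-KO. It was also lower in LATS1/2-Sox9-KO than in LATS1/2-KO, at -2.35 ± 0.60. The size of this last difference depended on single libraries: it was -1.65 without LATS1/2-KO replicate 1 and -3.23 without LATS1/2-Sox9-KO replicate 1. Without the same libraries, the differences from control became -4.54 in LATS1/2-KO and -7.09 in LATS1/2-Sox9-KO.

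Igfbp2 and Igfbp5 are neighbours on chromosome 1 of GRCm38. Igfbp2 lies at chr1:72824503-72852474 on the + strand and Igfbp5 at chr1:72857932-72874884 on the - strand, so their 3′ ends face each other across 5457 bases. Of the 16 annotated genes within 500 kb of the pair, these included, 5 had enough counts to be fitted. The other fitted genes were Xrcc5, a DNA end-joining subunit, with log2 differences from control of 0.88 ± 0.17 in LATS1/2-KO and 0.74 ± 0.17 in LATS1/2-Sox9-KO, Smarcal1, a DNA helicase-like enzyme, with -0.90 ± 0.15 and -0.89 ± 0.15, and the ribosomal protein gene Rpl37a, with 0.13 ± 0.12 and 0.06 ± 0.12. None of these 3 passed the call rule in either comparison with control, where 34.6% and 37.4% of all genes were called. Xrcc5 (edgeR adjusted p = 0.00146 and 0.00361) and Smarcal1 (edgeR adjusted p = 0.000742 and 0.000712) missed it only on the fold required.

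**Figure D2:**
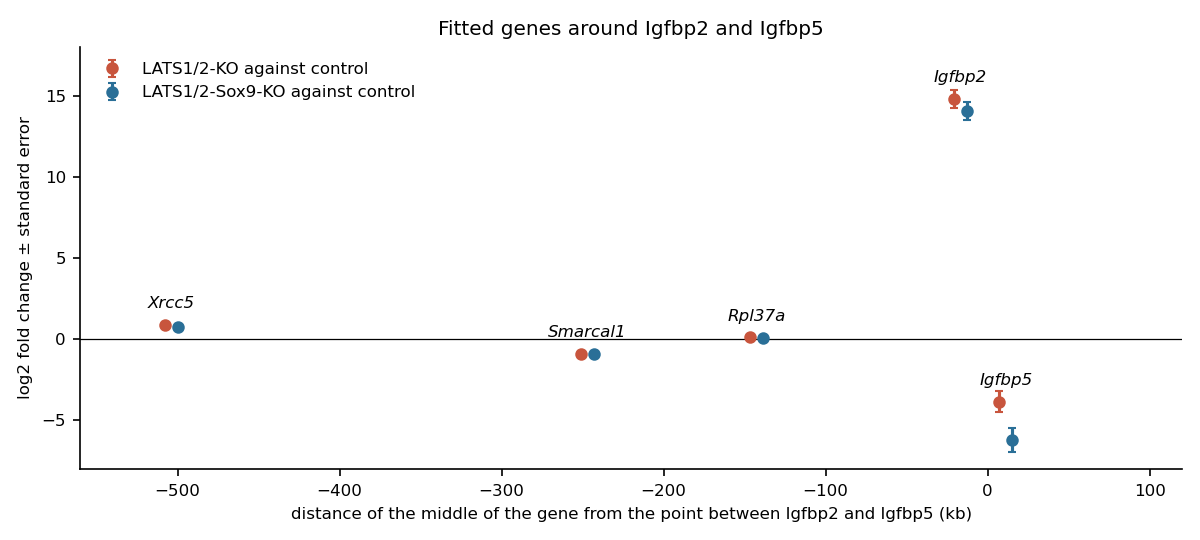
Log2 fold change with its standard error (vertical axis) of the 5 fitted genes near Igfbp2 and Igfbp5, against the distance of the middle of each gene from the point between the pair in kb (horizontal axis), with the points of the 2 comparisons set slightly apart. Igfbp2 stands at 14.79 and 14.08 and Igfbp5 at -3.85 and -6.20, and Xrcc5, Smarcal1 and Rpl37a lie between -0.90 and 0.88.

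The remaining binding protein genes are Igfbp3, Igfbp4 and Igfbp6. Igfbp3, which encodes the main carrier of circulating IGFs, had normalized counts of 55.7, 104 and 21.2 in control, 525, 295 and 815 in LATS1/2-KO and 175, 622 and 429.9 in LATS1/2-Sox9-KO. Every deletion library was above the highest control library, with log2 differences of 3.17 ± 0.64 and 2.75 ± 0.63, and the deletion groups overlapped. Without control replicate 2, the highest of the control libraries, these were 3.81 and 3.40. Igfbp4, whose product is inactivated by the protease PAPPA, had 125, 66.9 and 98.3 in control, 986, 324 and 355 in LATS1/2-KO and 343, 309 and 419.9 in LATS1/2-Sox9-KO. It was likewise above control in every deletion library, by 2.52 ± 0.44 and 1.88 ± 0.44, with LATS1/2-KO replicate 1 far above the other libraries. Without that library the difference in LATS1/2-KO was 1.81. Igfbp6, an IGF2-preferring binding protein, stayed at 2.49 to 10.2 in control, 4.24 to 25.1 in LATS1/2-KO and 4.64 to 30.1 in LATS1/2-Sox9-KO, and all groups overlapped.

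Of the ligands, Igf1 (chr10:87858265-87937042, + strand) was present at low counts and separated all groups. Its normalized counts were 22, 21.5 and 14.9 in control, 441, 369 and 439.6 in LATS1/2-KO and 124, 82.7 and 92 in LATS1/2-Sox9-KO. The LATS1/2-KO libraries were the highest, the control libraries the lowest, and no groups overlapped. The log2 difference from control was 4.41 ± 0.29 in LATS1/2-KO and 2.34 ± 0.27 in LATS1/2-Sox9-KO, and the difference of LATS1/2-Sox9-KO from LATS1/2-KO was -2.06 ± 0.25, with values from -2.22 to -1.92 as each library was left out. Per length, Igf1 reached only 2.55 ± 0.3 TPM in LATS1/2-KO, rank 13257 in the table. Fibroblasts, macrophages and adipocytes can also express Igf1. In LATS1/2-KO replicate 1, where Cfd was at 0, Igf1 was at 441, and replicates 2 and 3, where Cfd reached 198 and 116 TPM, had 369 and 439.6. In the same order of LATS1/2-KO replicates, the macrophage markers summed to 92.8, 60.7 and 37.7 TPM and the fibroblast markers to 84.7, 24.6 and 30.8 TPM, both highest in replicate 1. The part of transcripts from adipocytes, macrophages and fibroblasts in the Igf1 counts was not tested.

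Igf2, an imprinted gene, was close to absent, at 4.64, 7.94 and 1.24 in control, 2.01, 6.78 and 37.4 in LATS1/2-KO and 2.78, 13 and 7.29 in LATS1/2-Sox9-KO. It did not pass the filter on low counts and was not fitted. The one raised value came from LATS1/2-KO replicate 3, and the groups overlapped. Igf2 shares 3596 exonic bases with Gm49394 on the same strand, so its counts are uncertain.

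Against control, the log2 differences of the receptors were smaller in size than those of the binding proteins. Igf1r had normalized counts of 3287, 3756 and 2143 in control, 5751, 3513 and 5338 in LATS1/2-KO and 6877, 5250.2 and 5235 in LATS1/2-Sox9-KO. The LATS1/2-Sox9-KO libraries were all above control, and LATS1/2-KO replicate 2 fell within the control range. The log2 differences were 0.67 ± 0.24 and 0.92 ± 0.24, below the fold required for a call. As each library was left out in turn, the difference for LATS1/2-Sox9-KO ranged from 0.72 to 1.09. Igf2r had 14868, 15222 and 18691 in control, 11166, 7370.3 and 9833 in LATS1/2-KO and 14139.8, 12602 and 12910.4 in LATS1/2-Sox9-KO. In these counts Igf2r was lowest in LATS1/2-KO without overlap with either other group, at log2 differences of -0.78 ± 0.16 from control in LATS1/2-KO and -0.30 ± 0.16 in LATS1/2-Sox9-KO. In TPM the deletion groups overlapped, with LATS1/2-KO replicate 1 at 74.5 and LATS1/2-Sox9-KO replicate 2 at 74.0. Airn, the imprinted RNA transcribed antisense to Igf2r, shares no exonic bases with it and had mean normalized counts of 302, 355 and 687 in the 3 groups.

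**Figure D3:**
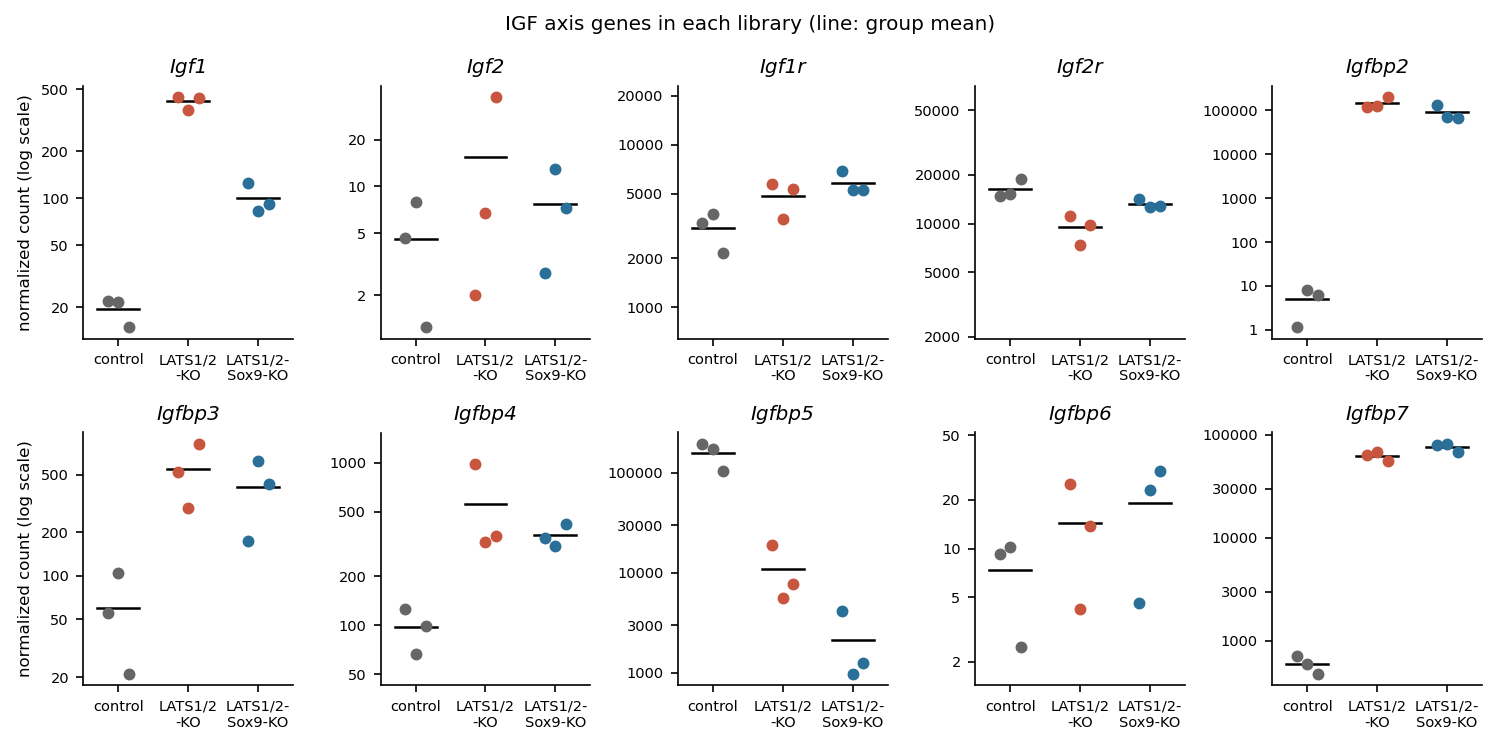
Normalized count on a log scale (vertical axis, a scale of its own for each panel) of the 10 IGF axis genes in the libraries of control, LATS1/2-KO and LATS1/2-Sox9-KO, with 1 point per library in the order of replicate numbers and a line at the group mean. Igfbp2 is at most 7.94 in control and at least 68073 in the deletion groups, Igfbp5 is lower in each group than in the one before, and Igf2 and Igfbp6 overlap in all groups.

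For a call, the log2 fold change had to exceed 1 in size, and the edgeR adjusted p could not exceed 0.05. Of the 9 IGF genes fitted, 5 were called higher and 1 lower in LATS1/2-KO against control, where 17.1% of the 19357 genes fitted were called higher and 17.5% lower, 34.6% in either direction. The same 5 and 1 were called in LATS1/2-Sox9-KO against control, with 17.8% and 19.6% of all genes, 37.4% in either direction. In LATS1/2-Sox9-KO against LATS1/2-KO, none was called higher and Igf1 and Igfbp5 were called lower, with 1.55% and 2.16% of all genes, 3.71% in either direction. The call of Igfbp5 there was lost in 8 of 16 other settings: in a fit of these groups alone, without any 1 of the control libraries, and without LATS1/2-KO replicate 1 or 3 or LATS1/2-Sox9-KO replicate 2 or 3. Igf1r in LATS1/2-Sox9-KO against control, not called, met the rule without control replicate 2 or LATS1/2-Sox9-KO replicate 2. In normalized counts, libraries of the groups did not overlap for 7, 8 and 4 of the 9 genes in the 3 comparisons, and for 61.6%, 68.8% and 27.9% of all genes. Since the genes were selected on these comparisons, nothing is read from these counts. Median log2 fold changes of the 9 genes were 2.52, 1.88 and -0.41 in the 3 comparisons, beside 0.04, 0.01 and -0.02 over all genes fitted. Both comparisons with control share the control libraries. With only replicate 1 of each deletion group, whose spread is then assumed to be that of control, the counts against control were again 5 and 1 and no IGF gene was called between the deletion groups, where Igf1 was at -1.78 and Igfbp5 at -2.17.

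**Figure D4:**
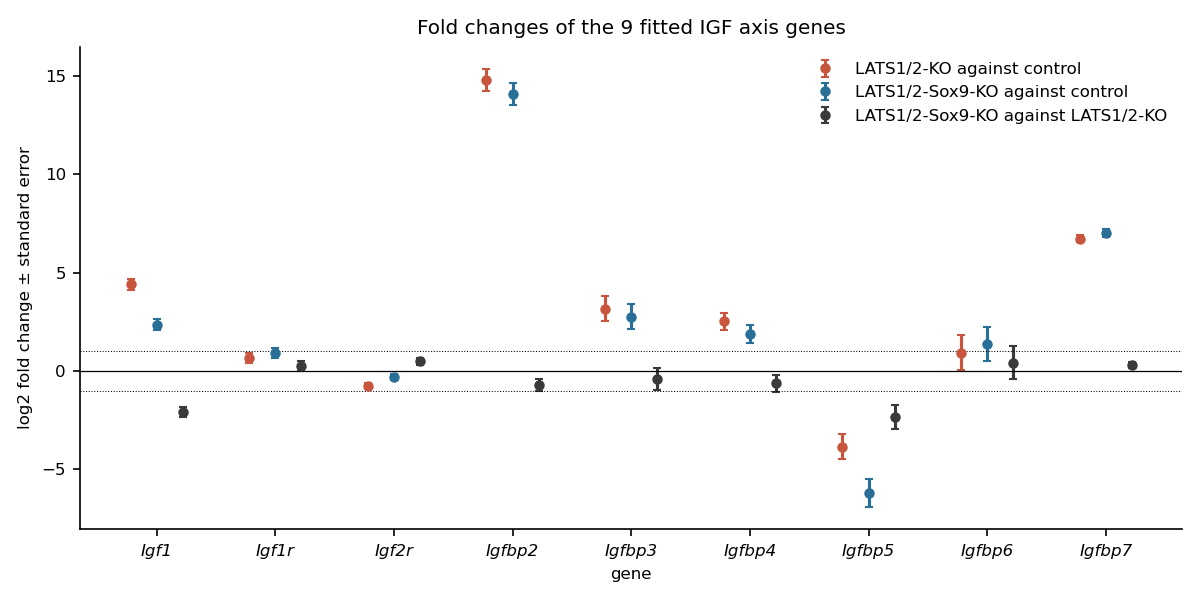
Log2 fold change with its standard error (vertical axis) of the 9 fitted IGF axis genes (horizontal axis) in the 3 comparisons, with dotted lines at 1 and -1. Igfbp2 and Igfbp7 lie far above the upper line in both comparisons with control, Igfbp5 lies below the lower line in all 3, and Igf1 is above it against control and at -2.06 between the deletion groups.

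Levels per length give the order within each group. In control, Igfbp5 (1639 ± 503 TPM) was followed by Igf2r (110 ± 13.5 TPM), Igfbp7 (30.8 ± 5.92 TPM) and Igf1r (11.5 ± 3.24 TPM), and these neighbours did not overlap. Igfbp4, Igfbp3, Igfbp6, Igfbp2 and Igf1 came next, at 1.38 TPM or less, and each of these overlapped the one after it, up to Igf1. Igf2 was last and did not overlap Igf1. In LATS1/2-KO, Igfbp2 (4842 ± 1322 TPM) and Igfbp7 (3127 ± 288 TPM) led without overlap, then Igfbp5 (110 ± 76.7 TPM) and Igf2r (61.6 ± 13.9 TPM), which overlapped. In LATS1/2-Sox9-KO, Igfbp7 (3458 ± 279 TPM) and Igfbp2 (2652 ± 985 TPM) overlapped, followed by Igf2r (77.4 ± 3.34 TPM), and Igfbp5 (19.1 ± 15.1 TPM) overlapped Igf1r (18.8 ± 2.6 TPM).

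The other genes of the IGF and insulin pathway were read from 7 lists of 71 genes, of which 65 were fitted. In LATS1/2-KO against control, 27 were called, 12 higher and 15 lower, beside 34.6% of all genes fitted. In LATS1/2-Sox9-KO against control, 32 were called, 13 higher and 19 lower, beside 37.4% of all genes. The lists were chosen with results of these data known, so nothing particular to them is read from these counts. Between the deletion groups none was called by edgeR or by DESeq2. By edgeR, 14 had an unadjusted p under 0.05, a number not set beside that of all genes, so nothing is read from it. In the same test 3 passed the adjusted p but not the fold: Eif4ebp1 (0.97, edgeR adjusted p = 0.00197), Nagpa (0.69, edgeR adjusted p = 0.0359) and Foxo4 (-0.63, edgeR adjusted p = 0.0403). The median log2 fold changes of the 65 genes were -0.30, -0.49 and 0.01. The values below are for LATS1/2-KO against control unless stated, where 17.1% of all genes were called higher and 17.5% lower, with adjusted p-values from edgeR's quasi-likelihood test over all genes.

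Of 7 listed insulin and IGF family genes outside the 10, 4 were fitted, and 3 were called lower and none higher, beside 17.5% of all genes called lower. One of the 3, Insrr, could pass the filter only through control, so the count is not read against that share. The fourth, Igfbpl1, was at 0.77 ± 0.93. Insr, the insulin receptor, went from 4591 ± 563 to 1986 ± 253 normalized counts (log2 fold change -1.21 ± 0.14, edgeR adjusted p = 5.61e-05) and was at 1578 ± 123 in LATS1/2-Sox9-KO. Igfals, which encodes the acid-labile subunit that forms a complex with IGFs and IGFBP3 or IGFBP5, went from 1309 ± 287 to 136 ± 63.1 (-3.27 ± 0.37, edgeR adjusted p = 5.46e-05). Insrr, an insulin receptor relative that senses alkaline pH, had 73.1, 73.7 and 27.4 in control and 0 in all LATS1/2-KO libraries, which is at least 64.3-fold lower against a floor of 3 counts over the group. One LATS1/2-Sox9-KO library, replicate 1, had 12.1. Igfbp1 and the insulin genes Ins1 and Ins2 had at most 1.69 in any library and were not fitted.

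Proteases of the binding proteins and the stanniocalcins that inhibit PAPPA moved in both directions. Of 7 fitted genes, 3 were called higher and 3 lower, beside 17.1% and 17.5% of all genes. Adam12 could pass the filter only through the deletion groups and Adam28 only through control, so no test is given for either. For the same reason, these counts are not read against the shares of all genes. Adam12, a metalloprotease that cleaves IGFBP3 and IGFBP5, went from 4.64, 0 and 13.7 to 6218, 1642 and 3467, and reached 5784, 7815 and 8572 in LATS1/2-Sox9-KO (a fitted log2 difference of 9.29 ± 0.74 in LATS1/2-KO). Without control replicate 2 or 3 this became 8.68 or 10.59. Htra1, a secreted serine protease, rose from 1029.5 ± 287 to 22080.0 ± 1279 (4.42 ± 0.20, edgeR adjusted p = 5.47e-07). Pappa, which cleaves IGFBP4, rose from 76.4 ± 34.8 to 351 ± 181 (2.20 ± 0.43, edgeR adjusted p = 0.00161), and its inhibitors Stc1 and Stc2 fell. Stc1 went from 241 ± 71.3 to 44.6 ± 0.401 (-2.43 ± 0.36, edgeR adjusted p = 0.000279). Stc2 varied widely in control, at 14318, 9372 and 54037, and was at 4039, 391 and 1661 in LATS1/2-KO (-3.67 ± 0.87, edgeR adjusted p = 0.00496), becoming -2.56 without control replicate 3 and -4.65 without LATS1/2-KO replicate 1. Adam28, a metalloprotease that cleaves IGFBP3, went from 38.3, 48.8 and 80.9 to 0, 0.847 and 0, a fold of 181 with a 95% counting interval of 32 to 7207, for counting error only. The single count is in LATS1/2-KO replicate 2, and without that library the fitted log2 difference moved from -7.04 to -8.77.

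Of 7 fitted regulators of Igf2 and its RNA, 5 were called higher and 1 lower, beside 17.1% of all genes called higher and 17.5% lower. The 5 (H19, Igf2bp1, Igf2bp3, Hmga2 and Lin28b) had few or no counts in control and could pass the filter only through the groups where they were high, so their number is not read against that share and no test is given for them. Igf2bp1, an RNA-binding protein gene of fetal tissues, went from 4.09 ± 5.21 to 130.0 ± 66.8 (a fitted log2 difference of 4.99 ± 0.81), a value of 4.40 without control replicate 2 and 6.67 without control replicate 3. Its relative Igf2bp3 went from 1.16, 2.27 and 0 to 138, 287 and 270.0, a fold of 201 with a 95% counting interval of 68.4 to 974. Its fitted log2 difference moved from 7.48 to 8.33 without control replicate 2. Igf2bp3 shares 1529 exonic bases with Malsu1 on the opposite strand, which had means of 907 in control and 1040 in LATS1/2-KO. H19, the imprinted RNA next to Igf2, had 30.2, 7.94 and 2.49 in control and 1999.8, 98.3 and 118 in LATS1/2-KO (a fitted log2 difference of 5.75 ± 1.34), and it was not called by DESeq2. Its value was 2.98 without LATS1/2-KO replicate 1 and 7.09 without control replicate 1. Plagl1, an imprinted zinc finger gene, was lower at -1.32 ± 0.50 (edgeR adjusted p = 0.0457), a call kept in 9 of 16 other settings.

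In the growth hormone receptor axis, which induces Igf1 in other tissues, 3 of 5 fitted genes were called lower and none higher. Of all genes, 17.5% were called lower and 17.1% higher. Stat5a went from 7578 ± 3872 to 503 ± 131 (-3.91 ± 0.34, edgeR adjusted p = 1.29e-05), Stat5b from 4991 ± 1380.2 to 1313 ± 262 (-1.93 ± 0.22, edgeR adjusted p = 6.06e-05), and the kinase gene Jak2 from 8004 ± 2756 to 3256 ± 635 (-1.30 ± 0.26, edgeR adjusted p = 0.00204). Control replicate 3 had the highest count of each of these 3 genes, and without it Jak2 was at -0.99 and no longer called. Ghr, the receptor gene, had normalized counts of 1410, 2184 and 10693 in control and was not called (0.41 ± 0.60). Without control replicate 3, Ghr was at 1.80 and called higher. Stat5a shares 72 exonic bases with Stat3 on the opposite strand, whose mean was 43855 in control and 12789 in LATS1/2-KO. None of the 4 fitted genes of mannose 6-phosphate sorting, the pathway IGF2R serves, was called, with log2 fold changes from -0.85 to 0.40.

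Of 13 fitted receptor adaptors and inhibitors, 4 were called, 1 higher and 3 lower, beside 34.6% of all genes. Irs1 and Irs2, the docking proteins of the insulin and IGF1 receptors, were at -0.95 ± 0.12 (edgeR adjusted p = 0.000138) and -0.85 ± 0.27 (edgeR adjusted p = 0.0207) and did not reach the fold required. Among inhibitors, Socs3 fell from 34855 ± 7793 to 2893 ± 414 (-3.59 ± 0.35, edgeR adjusted p = 2.46e-05) and the phosphatase gene Ptpn1 from 11250.3 ± 576 to 2782 ± 561 (-2.02 ± 0.16, edgeR adjusted p = 7.21e-06). Grb10, an imprinted adaptor that restrains the same receptors, rose from 663 ± 28.1 to 2606 ± 454 (1.97 ± 0.15, edgeR adjusted p = 5.54e-06). Sh2b2, an adaptor of the insulin receptor, fell from 378 ± 139 to 143 ± 45.4 (-1.40 ± 0.33, edgeR adjusted p = 0.00504).

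Downstream, 5 of 25 PI3K, AKT and mTOR genes were called, 3 higher and 2 lower, beside 34.6% of all genes. Pik3cb, a catalytic subunit of PI3K, rose from 3062 ± 409 to 14378 ± 1120.0 (2.23 ± 0.12, edgeR adjusted p = 1.3e-06). Eif4ebp1, a translation inhibitor that mTOR inactivates, had 829 ± 35.5 in control, 3529.9 ± 232 in LATS1/2-KO and 6903 ± 504 in LATS1/2-Sox9-KO (2.09 ± 0.11 in LATS1/2-KO, edgeR adjusted p = 9.67e-07). Between the deletion groups it differed by 0.97 ± 0.10 (edgeR adjusted p = 0.00197), just under the fold required. Foxo6 rose by 1.34 ± 0.20 (edgeR adjusted p = 0.000278) and Foxo3, another transcription factor that AKT restrains, fell, at -1.57 ± 0.19 (edgeR adjusted p = 7.62e-05). Tsc2, an mTOR inhibitor, was lower at -1.93 ± 0.13 (edgeR adjusted p = 3.68e-06) and shares 693 exonic bases with Pkd1 on the opposite strand, whose mean was 9557 in control and 3412 in LATS1/2-KO.

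**Figure D5:**
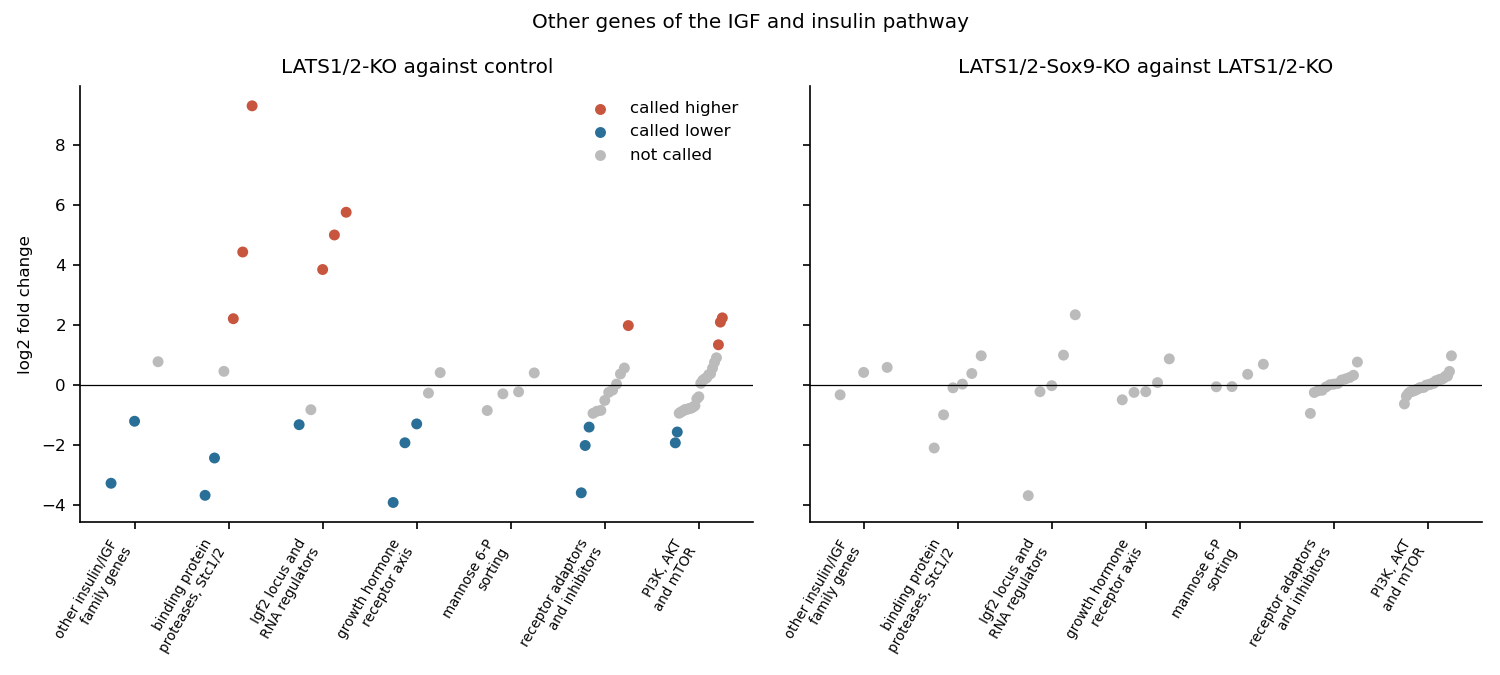
Log2 fold change (vertical axis) of the fitted genes of 7 IGF and insulin pathway lists (horizontal axis) in LATS1/2-KO against control and in LATS1/2-Sox9-KO against LATS1/2-KO, 1 point per gene, colored where called, leaving out genes with a group at 3 counts or fewer. Against control, Adam12 stands highest at 9.29 and Stat5a lowest at -3.91, and no gene is colored between the deletion groups.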

How the data were processed

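RNA from 3 libraries per group was sequenced by the authors, aligned to mm10 with STAR 2.6.0c and counted per Ensembl gene with featureCounts (Subread 1.6.2), keeping uniquely aligned proper pairs and leaving out mitochondrial genes. The deposited values are raw counts. The library kit in the labels does not mark strand, while the methods state same-strand counting, so antisense genes may share reads.

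Symbols, coordinates and lengths came from GENCODE M21 (GRCm38), which matched 55190 of 55450 identifiers. In R 4.3.3, edgeR 4.0.16 fitted the 19357 genes passing filterByExpr in all 9 libraries, with TMM factors and a quasi-likelihood test. Adjusted p-values are Benjamini-Hochberg over all genes fitted. Calls used the study's thresholds, adjusted p up to 0.05 and a log2 fold change beyond 1 in either direction. TPM was computed here from counts and exon lengths. Replicate numbers are shared between groups, but their deviations correlated at only -0.07 to 0.17, so no block was used. Libraries of a group differed by more than sampling noise, with a chi-square per gene of 16.4 to 129.

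The 10 genes and all gene lists were chosen with earlier results of these data known. Pathway genes were named if they had the largest log2 fold changes of their list in each direction (up to 3), with 50 or more mean normalized counts in the higher group and no overlap of libraries, besides Insr, Irs1, Irs2, Pappa, Igfbp1 and Igfals, whatever their values. Markers were named if most abundant or at 0; others were named after their values were seen. The promoter windows are from RefSeq. Alternatives were DESeq2 1.42.0, RLE or upper-quartile factors, filtering replaced by none or by a minimum of 10 counts per library, only the 2 groups compared, a replicate block, each library left out, and another transcript length. The code was tested on simulated data.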

Additional observations from a re-analysis of the deposited data

How the results depend on the processing

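The log2 differences of the IGF genes from control are descriptions, since the genes were selected on them, and no call among them is offered as support. Igfbp2 could not be fitted with at least 10 counts in every library. That filter lowered the pathway genes called higher from 12 to 6 in LATS1/2-KO and from 13 to 8 in LATS1/2-Sox9-KO, since genes near 0 in control were not fitted. With each library left out in turn these counts were 12 to 13 and 12 to 14. Between the deletion groups, 301 genes were called higher and 418 lower, against 509 and 750 with DESeq2, and 121 to 497 and 78 to 582 with each library left out. With only replicate 1 of the deletion groups, a setting chosen after seeing the data, they were 52 and 24. IGF genes called lower there, again a description, were 2, against 1 with only the 2 groups compared, 1 to 2 with each library left out and 0 with only replicate 1 of the deletion groups, where Igfbp6 against control in LATS1/2-Sox9-KO also moved from 1.37 to -0.63. Pathway genes called there were 0 in each direction, against 1 higher and 1 lower with no filter, and 0 to 1 higher and 0 lower with each library left out. The cause of these differences was not tested. The replicate block, whose numbers are shared by labels only, gave 265 genes higher and 336 lower between the deletion groups and the samples were not treated as paired. Depth limits Igf2, Igfbp6 and control Igfbp2, which rest on few counts.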

Other observations

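Genes were compared with Igfbp2, Igfbp7 and Igfbp5, the 3 IGF genes with the widest range of group means, by the root mean square difference of log2 CPM profiles centred on their own mean over the 9 libraries. The profile most like Igfbp2 was that of Msln, which encodes the surface glycoprotein mesothelin, at a difference of 1.02, followed by the Wnt ligand gene Wnt7a at 1.6 and the cornification protease gene Casp14 at 1.93. Msln had mean normalized counts of 1.51 in control, 46705 in LATS1/2-KO and 106389 in LATS1/2-Sox9-KO. Igfbp7 was closest to Pmp22, a membrane protein gene of myelin, at 0.246, then to the galectin gene Lgals1 at 0.304 and the HOX cluster RNA Hotairm1 at 0.311. Pmp22 had means of 296, 32721 and 38918 in the 3 groups. Igfbp5 was closest to Gfpt2, an enzyme of the hexosamine pathway, at 0.422, then to the photoreceptor cadherin gene Cdhr1 at 0.442 and the ionocyte transcription factor gene Foxi1 at 0.506. Gfpt2 had means of 7022, 402 and 102. These likenesses over 9 libraries largely reflect the group means and are a description with no test.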
